A study of Mus musculus with 5 samples.

Results

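Rspo1, Lef1, Sp5, Msx1 and Cyp26b1 are 5 genes tied to WNT signalling in pre-granulosa cells or, for Cyp26b1, to retinoic acid. They were taken by name from the promoter names in tables of chromatin contacts, and every contact within a chromosome (cis) with such a promoter at either end was kept. This gave 18 of 51524 cis contacts in the table with the extended baits, where all 5 of 8942 named genes were found. In the table with the original baits it gave 6 of 29421 cis contacts, all of Lef1, the only member among its 5784 named genes. The members had 0 contacts between chromosomes in either table.

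Contacts were measured by capture Hi-C, which ligates and sequences DNA that lies close together in the nucleus and enriches chosen promoter fragments, the baits. The groups were 3 libraries of Sertoli cells carrying the Sox9IRES-GFP reporter and 2 libraries of pre-granulosa cells carrying the Enh8-mCherry reporter, all from gonads at E13.5, a stage counted in days of embryonic development, each from about 100000 sorted cells. The GFP reporter sits at Sox9, a gene that marks Sertoli cells, while the labels used here do not say which element drives the mCherry, nor how many embryos were pooled. Cell identity could not be checked against marker transcripts, because the tables hold contacts and no expression. Each contact has a single CHiCAGO score per cell type, which rises the more its read pairs exceed the background for its distance. The libraries of a cell type share that score, so no value below has a replicate error, no difference was tested, and the read depth is unknown.

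In the WNT pathway, secreted ligands bind receptors at the cell surface and stabilise beta-catenin, which enters the nucleus and joins DNA-binding factors of the TCF/LEF family to activate target genes. R-spondins, such as the product of Rspo1, strengthen the signal by protecting the receptors, and this signal is known to promote ovarian over testicular development. Retinoic acid acts beside it in the fetal gonad, where it promotes entry of germ cells into meiosis, and the enzyme encoded by Cyp26b1, known for its activity in the fetal testis, breaks it down.

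The promoters are the fixed ends of all contacts described here, so their sequence is shown for the 4 genes with more than 1 listed contact. These are the 250 bases before a RefSeq start site on GRCm38.p6, read 5′ to 3′ in the direction of the gene, and all 4 lie inside the extended bait of their gene. For Lef1 the start site next to the original bait was taken. Capitals mark GATC, the site cut by DpnII, the enzyme that makes the fragment ends in this assay, and matches to the TCF/LEF motif forms CTTTGAT and CTTTGTT on either strand.
Rspo1, chr4:124986180-124986429, plus strand: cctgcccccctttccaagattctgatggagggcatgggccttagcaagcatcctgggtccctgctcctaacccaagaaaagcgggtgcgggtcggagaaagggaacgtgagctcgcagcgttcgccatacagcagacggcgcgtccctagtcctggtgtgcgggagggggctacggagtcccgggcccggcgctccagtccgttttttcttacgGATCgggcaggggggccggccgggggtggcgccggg
Lef1, chr3:131112541-131112790, plus strand: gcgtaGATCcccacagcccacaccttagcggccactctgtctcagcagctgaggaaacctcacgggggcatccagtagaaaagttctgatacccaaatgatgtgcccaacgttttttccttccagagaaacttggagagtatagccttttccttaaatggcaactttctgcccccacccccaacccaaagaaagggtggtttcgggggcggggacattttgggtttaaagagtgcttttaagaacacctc
Sp5, chr2:70474673-70474922, plus strand: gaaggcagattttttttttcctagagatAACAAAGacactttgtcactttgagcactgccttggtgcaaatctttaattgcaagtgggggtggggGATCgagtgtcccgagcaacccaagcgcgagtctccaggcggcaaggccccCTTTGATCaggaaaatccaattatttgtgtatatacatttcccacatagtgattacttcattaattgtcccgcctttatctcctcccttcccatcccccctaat
Msx1, chr5:37824586-37824835, minus strand: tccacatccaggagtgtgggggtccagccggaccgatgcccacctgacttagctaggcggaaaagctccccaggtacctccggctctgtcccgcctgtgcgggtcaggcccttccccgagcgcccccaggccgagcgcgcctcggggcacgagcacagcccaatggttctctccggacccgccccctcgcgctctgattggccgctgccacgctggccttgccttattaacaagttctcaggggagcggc

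Sp5 held both TCF/LEF forms. CTTTGAT began at position 147 of the printed run, 104 bases before the start site, and overlapped the DpnII site at position 151, so that the run in capitals there is longer than either. CTTTGTT lay on the opposite strand from position 29, where the printed strand reads AACAAAG. Among 32851 promoter windows of the same length, 3.21% held the first form, 5.03% the second and 0.174% both. The windows of Rspo1, Msx1 and Cyp26b1 and the 4 Lef1 windows held 0 matches to either form, which says only that these letters are not in those windows. The motif cores bound by retinoid receptors, AGGTCA and AGTTCA, were searched in the same way and are found in 14.0% and 11.8% of all windows. In the windows of the members they had a match only in the 2 overlapping upstream windows of Lef1, which share the same AGTTCA. DpnII sites occur in 41.9% of the windows, and the GATC at position 6 of the printed Lef1 run is the first base of the original Lef1 bait at 131112546.

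With the extended baits, pre-granulosa cells had 14 of the 18 member contacts as calls and Sertoli cells had 6, a call being a score of at least 5. In the whole table the order was the other way round, with 78.0% of cis contacts called in Sertoli cells but 56.3% in pre-granulosa cells. Of the 18, 12 were called only in pre-granulosa cells, 4 only in Sertoli cells and 2 in both, against 22.0%, 43.7% and 34.3% of the table. The 4 Sertoli-only contacts all belonged to Rspo1. The other 4 genes together had 13 contacts, of which 11 were called only in pre-granulosa cells and 2 in both, and the pre-granulosa score was the higher in all 13. In the whole table it was the higher in 35.0% of cis contacts. For the 11 pre-granulosa-only contacts the order follows from the call, so only the 2 shared ones could have differed. A table of this kind lists only contacts that reach 5 in at least 1 cell type, so every contact shown had to be called somewhere.

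**Figure D1:**
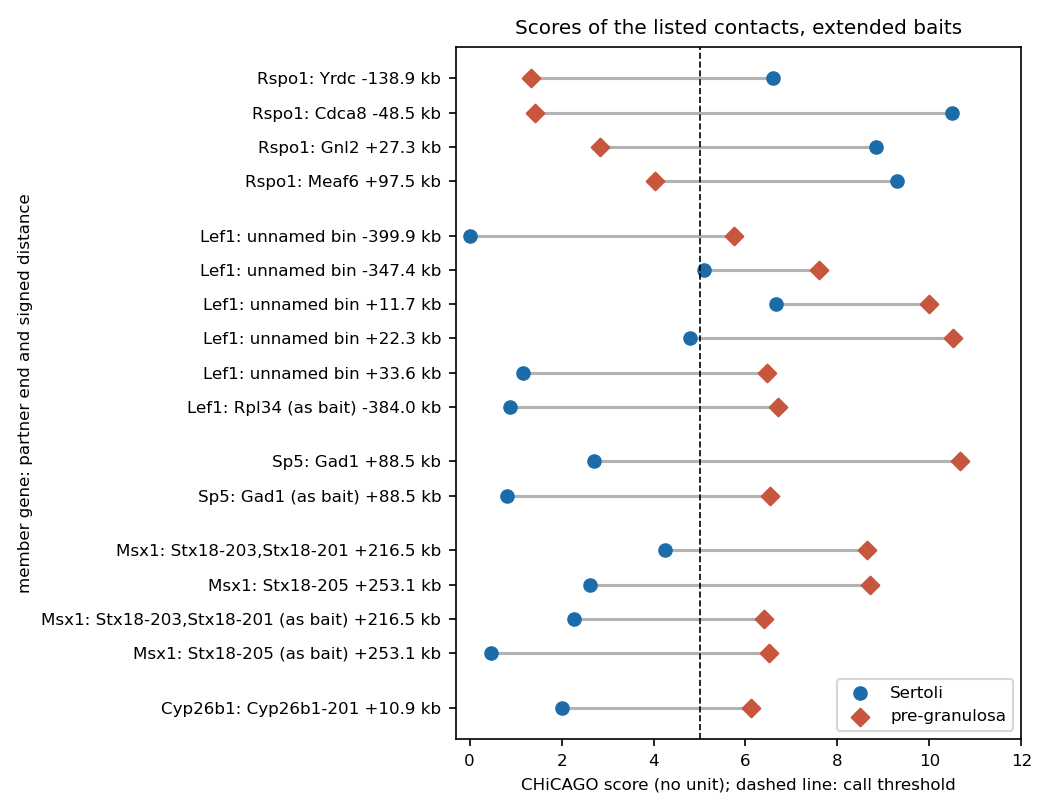
CHiCAGO score of 17 of the 18 member contacts in Sertoli cells (circles) and pre-granulosa cells (diamonds), extended baits; 1 row per contact, with the signed distance of the partner end, and a dashed line at the threshold of 5. The diamond lies to the right in every row except the 4 Rspo1 rows.

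Rspo1, whose product is the secreted potentiator of WNT signals, was the only member with more Sertoli than pre-granulosa calls, 4 against 1. Over all named genes, 56.5% had more Sertoli calls and 30.7% more pre-granulosa calls. Its bait bin lay on chromosome 4 from 124986131 to 124991215, around the start of Rspo1, and all 5 of its contacts joined it to bins that carry the promoter names of other genes.

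The highest Sertoli score of Rspo1 was with the bin named for Cdca8, which encodes a subunit of the chromosomal passenger complex of dividing cells. This bin, from 124937639 to 124942641, scored 10.5 in Sertoli cells against 1.42 in pre-granulosa cells at a distance of 48.5 kb. By RefSeq bounds it lies in 9930104L06Rik, the neighbour of Cdca8. Of all Sertoli calls, 22.3% scored higher, and 6.42% of all cis contacts had a larger excess in Sertoli cells on the inverse hyperbolic sine (asinh) scale.

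The bins of Meaf6, Gnl2 and Yrdc followed. Meaf6, a component of histone acetyltransferase complexes, scored 9.30 in Sertoli cells against 4.03 in pre-granulosa cells at 97.5 kb. The bin named for Gnl2-202, a promoter of a nucleolar GTPase gene, scored 8.83 and 2.83 at 27.3 kb, and by RefSeq bounds overlaps only the long non-coding RNA gene Gm38472. Yrdc, which encodes an enzyme of transfer RNA modification, scored 6.60 and 1.33 on the other side of Rspo1, at -138.9 kb. By RefSeq bounds its bin also overlaps Mtf1 and 1110065P20Rik. The contacts with these 3 bins were Sertoli-only calls, and the pre-granulosa score of Meaf6 lay closest to the threshold.

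The bins of Cdca8, Gnl2 and Meaf6 contacted each other mostly in both cell types, while Yrdc had 0 listed contacts with these 3. Of 6 possible pairs among the 4 bins, 3 had a listed contact, in 5 rows when each direction is read separately. Of the 5, 4 were called in both cell types, 1 only in pre-granulosa cells and 0 only in Sertoli cells. In the whole table the shares were 34.3%, 22.0% and 43.7%. The pre-granulosa score was the higher in 4 rows, but Cdca8 and Gnl2 had no steady order. From Cdca8 that pair scored 5.51 in Sertoli cells against 5.58 in pre-granulosa cells, and from Gnl2 7.45 against 7.20. The strongest joined Cdca8 to Meaf6 across 146.0 kb, passing over Rspo1, at 12.8 in Sertoli cells against 17.4 in pre-granulosa cells. From Rspo1 the same bins gave 10.5 and 1.42 for Cdca8, and 9.30 and 4.03 for Meaf6, so that the order of the cell types was the reverse.

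**Figure D2:**
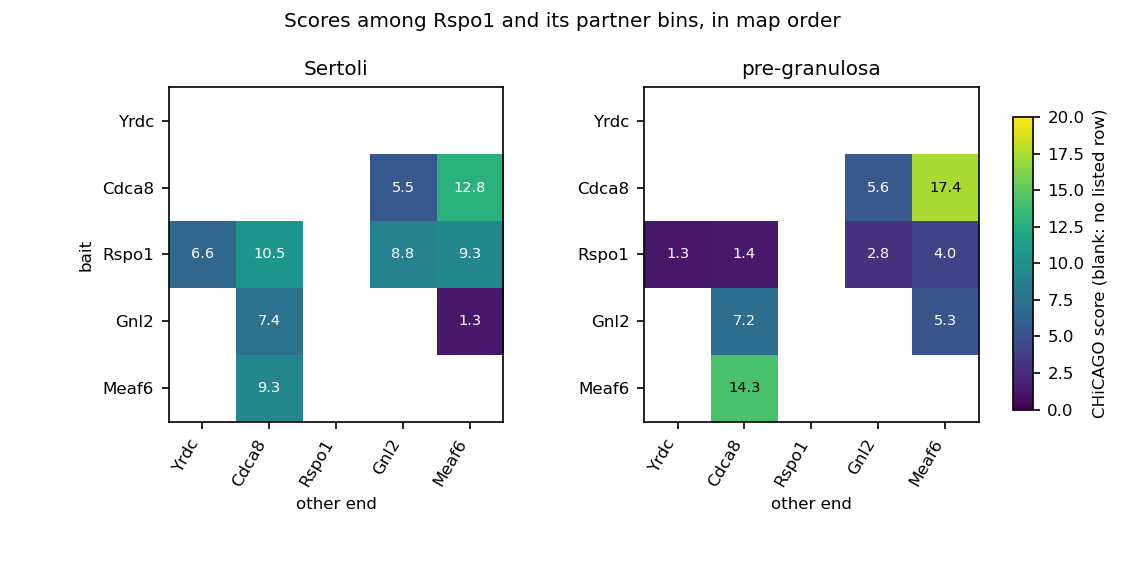
CHiCAGO scores among Rspo1 and the bins of Yrdc, Cdca8, Gnl2 and Meaf6 in Sertoli cells (left) and pre-granulosa cells (right), extended baits, with baits as rows and other ends as columns, both in map order; blank cells have no listed contact. The Rspo1 row is brighter in the Sertoli panel, while the cells that join Cdca8 and Meaf6 are brighter in the pre-granulosa panel.

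The contacts of Rspo1 were listed from its own side only. Each pair of promoter bins can be read from both baits, and 68.1% of the 28243 contacts with a named other end had the reverse row listed too. For Rspo1 it was 0 of 5, although each partner bin was itself a bait with at least 5 listed contacts. The bait bins within 500 kb of Rspo1, 13 in number, had 76 contacts without Rspo1, of which 32.9% were called only in Sertoli cells and 27.6% only in pre-granulosa cells.

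Lef1, which encodes a DNA-binding partner of beta-catenin, had 6 contacts, all called in pre-granulosa cells and 2 of them in Sertoli cells as well. Its bait bin, named for Lef1-201 and Lef1-203, lay on chromosome 3 from 131109543 to 131115967. The contacts formed 2 groups. Of the 6, 3 lay inside the gene, whose RefSeq bounds are 131110297 to 131224357, and 3 lay 347.4 to 399.9 kb away at lower coordinates, upstream of the gene. The table of gene bounds used here does not tell exons from introns.

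Inside the gene, the Sertoli scores were lower in each bin farther from the promoter. At 11.7 kb the Sertoli score was 6.65 and the pre-granulosa score just over 10. At 22.3 kb they were 4.78 and 10.5, so that the Sertoli score was just under the threshold, and this was the highest pre-granulosa score of Lef1. At 33.6 kb they were 1.16 and 6.46. The excess in pre-granulosa cells was 3.35, 5.73 and 5.31 score units.

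Upstream, a bin without a promoter name at -347.4 kb, from 130762661 to 130767974, was shared, at 5.11 in Sertoli cells against 7.60 in pre-granulosa cells. The bin at -399.9 kb, from 130710231 to 130715567, scored 5.75 in pre-granulosa cells, with a listed 0 for Sertoli cells. A listed 0 may stand for a value that could not be computed, and 0.92% of the cis contacts had one in Sertoli cells. Neither bin overlapped a RefSeq gene. Between them lay Rpl34, which encodes a protein of the large ribosomal subunit. Its bait, from 130726112 to 130731374, had 1 listed contact, which was with the Lef1 promoter bin at 384.0 kb and scored 6.70 in pre-granulosa cells against 0.87 in Sertoli cells. This contact was listed from Rpl34 only. Of all cis contacts, 2.29% had a larger pre-granulosa excess on the asinh scale. The 6 baits within 500 kb of Lef1 had 19 other contacts, of which 10.5% were called only in pre-granulosa cells and 47.4% only in Sertoli cells.

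The original baits gave Lef1 5 pre-granulosa calls and 3 Sertoli calls, from a single fragment, 131112546 to 131113471. Of the 6 contacts, 3 were called only in pre-granulosa cells, 1 only in Sertoli cells and 2 in both. The bin at 19.1 kb just missed a Sertoli call at 4.99, and the Sertoli-only bin just reached one at 5.01. Of all contacts listed there, 20.5% were called only in pre-granulosa cells, 58.0% only in Sertoli cells and 21.5% in both, and calls in Sertoli cells covered 79.5% and those in pre-granulosa cells 42.0%. All 3 extended bins inside the gene overlapped at least 1 contacted bin of this table, and the pre-granulosa score was the higher in each of its 4 bins there. The excess was 0.44 score units at 8.65 kb, 0.90 at 19.1 kb, 4.80 at 24.6 kb and 4.46 at 30.3 kb. Upstream the tables disagreed. The bin from 130762661 to 130767974 is the same in both, and with the original bait it scored higher in Sertoli cells, 6.53 against 5.46. The bins at -399.9 kb and of Rpl34 had no listed contact with the original Lef1 bait. A further bin at -314.8 kb, in the long non-coding RNA gene Gm36443, scored 5.01 for Sertoli cells, with a listed 0 for pre-granulosa cells. Both tables come from the same libraries, so neither is a replicate of the other.

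**Figure D3:**
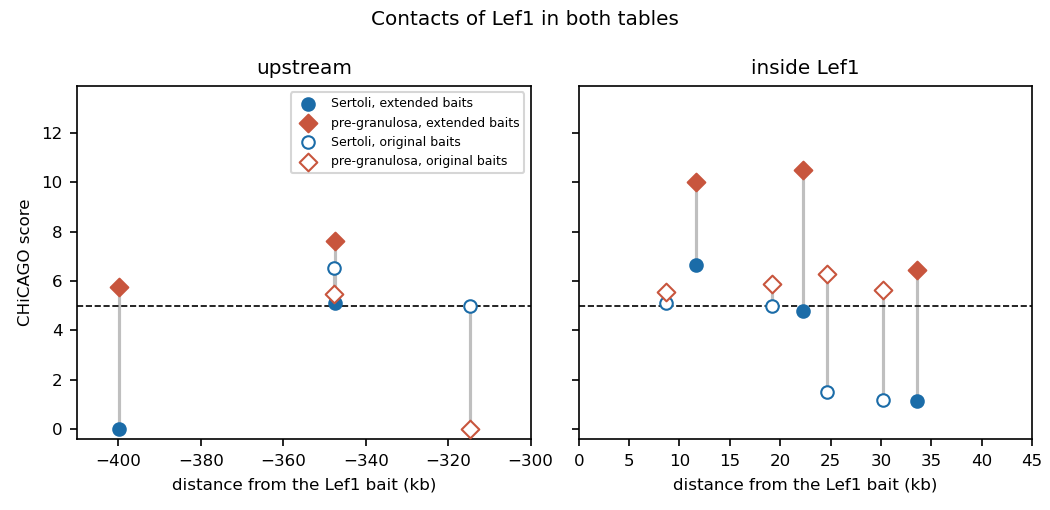
CHiCAGO score (vertical axis) against distance from the Lef1 bait in kb for the contacts of Lef1 in Sertoli cells (circles) and pre-granulosa cells (diamonds), with filled symbols for the extended and open symbols for the original bait and a dashed line at 5. Inside the gene (right) the diamonds lie above the circles in both tables, and upstream at -347.4 kb the order depends on the table.

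Sp5 encodes a zinc finger transcription factor of the SP family and is known as a direct target of WNT signalling. Its bait bin on chromosome 2, from 70472447 to 70477742, had a single partner, the bin of the Gad1 promoters from 70560595 to 70566610, 88.5 kb away at higher coordinates. Gad1 encodes the enzyme that makes the transmitter GABA. From Sp5 the contact scored 10.7 in pre-granulosa cells against 2.70 in Sertoli cells, and from Gad1 6.53 and 0.80. Both directions were called only in pre-granulosa cells, and 4.60% and 2.18% of all cis contacts had a larger pre-granulosa excess on the asinh scale. The 10.7 was the highest pre-granulosa score of the members, and 18.2% of all pre-granulosa calls scored higher. The 2 rows describe the same pair of bins and are not independent.

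Gad1 itself did not share this one-sidedness. Its promoter bin had 10 contacts, 7 of them called in Sertoli cells, 8 in the pre-granulosa column and 5 in both, and its highest scores were 16.5 in Sertoli cells against 19.1 in pre-granulosa cells. The contact with Sp5 was among the 3 called only in pre-granulosa cells. Around Sp5, however, pre-granulosa-only contacts were frequent: 9 other baits within 500 kb had 26 contacts, of which 42.3% were called only in pre-granulosa cells and 26.9% only in Sertoli cells.

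Msx1 encodes a homeobox transcription factor that responds to WNT and BMP signals in several tissues. Its bait bin on chromosome 5, from 37822228 to 37827345, contacted 2 bins named for promoters of Stx18, which encodes a syntaxin of the endoplasmic reticulum. The first, named for Stx18-203 and Stx18-201, lay 216.5 kb away, from 38038450 to 38044096. It scored 8.63 in pre-granulosa cells against 4.26 in Sertoli cells from Msx1, and 6.41 and 2.28 in the reverse direction. The second, named for Stx18-205, lay 253.1 kb away, from 38075317 to 38080409, inside the Stx18 gene. It scored 8.70 and 2.62 from Msx1, and 6.51 and 0.47 in reverse.

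All 4 rows of Msx1 were called only in pre-granulosa cells, and they stand for 2 pairs of bins. Msx1 is on the minus strand, so the Stx18 bins lie upstream of it. The highest Sertoli score of Msx1 was 4.26 and its lowest pre-granulosa score 6.41. With all 4 rows called only in pre-granulosa cells, this order follows from the threshold. As baits, and without the contact to Msx1, the first Stx18 bin had 5 contacts, 4 of them pre-granulosa-only and 1 Sertoli-only. Its highest Sertoli score there, 5.17, was below its highest pre-granulosa score. The second had 4, of which 2 were pre-granulosa-only, 1 Sertoli-only and 1 shared. Its strongest contact ran the other way, at 11.2 in Sertoli cells against 6.42 in pre-granulosa cells. The 29 contacts without Msx1 from the 11 other baits within 500 kb were 27.6% pre-granulosa-only and 51.7% Sertoli-only.

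Cyp26b1 encodes the enzyme that removes retinoic acid. It had 1 listed contact, between bins named for its own promoters. The bait bin of Cyp26b1-205 on chromosome 6, from 84582515 to 84588165, contacted the bin of Cyp26b1-201, from 84593492 to 84599040, 10.9 kb away. The scores were 6.13 in pre-granulosa cells against 2.02 in Sertoli cells, so that it was called only in pre-granulosa cells. The second bin holds the RefSeq start site of the gene and had 0 listed contacts as a bait, and there were 0 other baits with a listed contact within 500 kb. Of all pre-granulosa calls, 66.6% scored higher than this one.

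The counts were also read against contacts of like distance. Between 200 and 500 kb, where 7 member contacts lay, 26.4% of the 3156 contacts in the table were called only in pre-granulosa cells and 20.6% in both. The 7 were 4 rows of Msx1 and 3 of Lef1, with 6 called only in pre-granulosa cells and 1 in both. The rows of Msx1 here, and those of Sp5 between 50 and 100 kb, count each pair of bins from both sides. Between 50 and 100 kb 3 of 4 member contacts were pre-granulosa-only, against 21.1% of the table, and between 20 and 50 kb 2 of 4, against 22.0%. Under 20 kb it was 1 of 2, against 20.9%. The single contact between 100 and 200 kb, of Rspo1 and Yrdc, was Sertoli-only, as were 54.5% in the table. Contacts with a named other end were 21.3% pre-granulosa-only in the table, and 9 of 13 among the members.

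**Figure D4:**
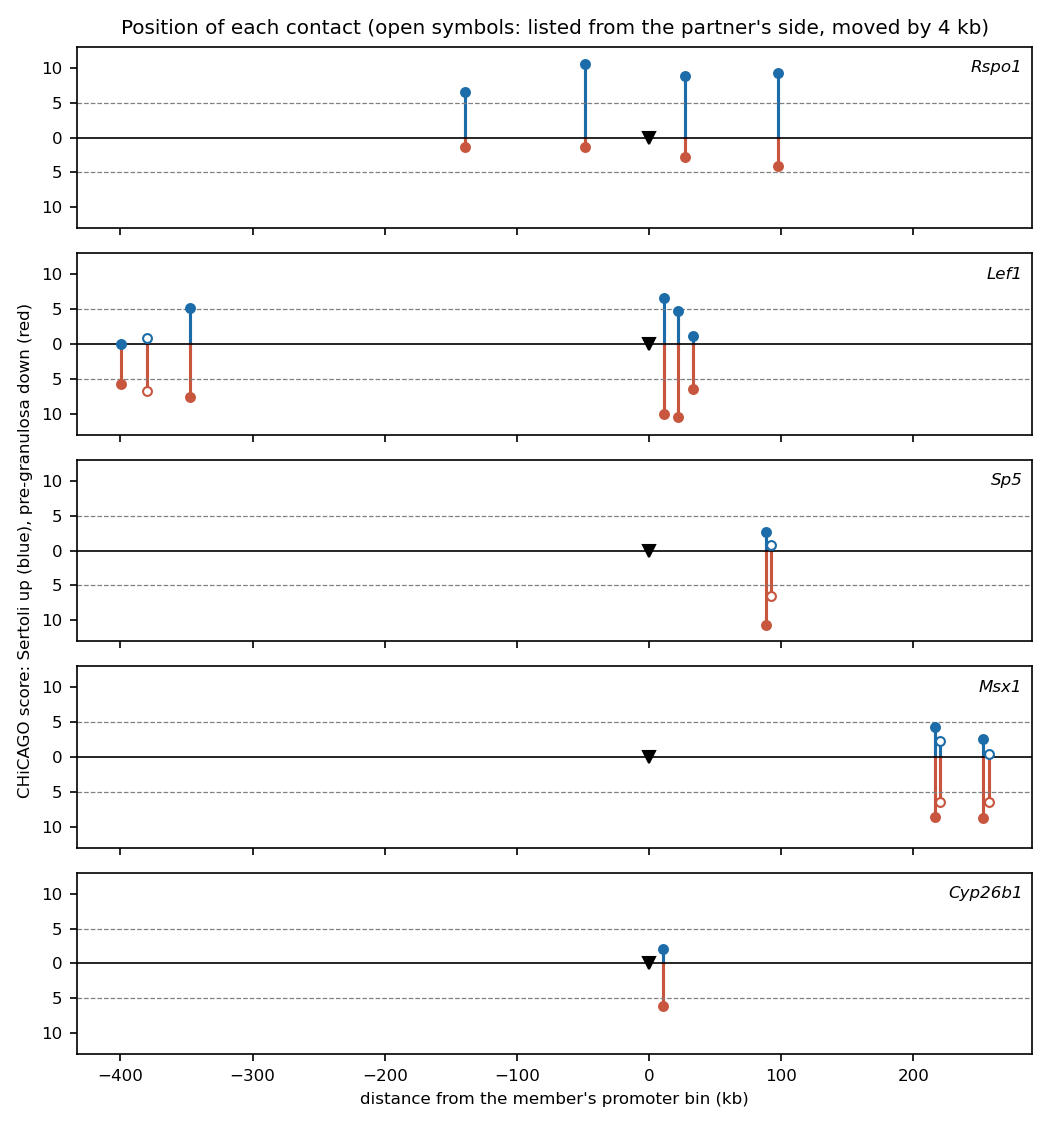
CHiCAGO score of 17 of the 18 member contacts against distance in kb from the member's promoter bin (triangle), with Sertoli scores drawn upwards and pre-granulosa scores downwards, 1 panel per gene and dashed lines at 5; open symbols are rows listed from the partner's side, drawn slightly to the right. Partners of Rspo1 lay on both sides within 138.9 kb, and those of Msx1 and the upstream ones of Lef1 beyond 200 kb.

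Of the other WNT genes with listed contacts, 63.3% had more Sertoli calls, beside 56.5% of all genes. Lists of WNT genes held 93 genes besides the members, and 30 had a listed contact. Of these, 19 had more Sertoli calls, 6 more pre-granulosa calls and 5 equal numbers, with a median difference of 1 call towards Sertoli cells, the same median as over all 8942 genes. All 4 measured genes of cytoplasmic transduction had more Sertoli calls, led by Ctnnb1, the beta-catenin gene, with 19 Sertoli and 7 pre-granulosa calls. Its inhibitor Ctnnbip1 had 6 and 0, Dvl1 had 4 and 2, and Gsk3a, a kinase gene of the destruction complex, 12 and 10.

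Among the ligands, 5 of 6 measured genes had more Sertoli calls and 1 had equal numbers, where 56.5% of all genes had more Sertoli calls. Wnt6 had 5 Sertoli and 2 pre-granulosa calls, and its neighbour Wnt10a had 4 and 2. Wnt11 had 1 and 0 and Wnt5b 3 and 2. The R-spondin receptors followed Rspo1 in direction, Lgr4 with 8 and 5 calls and Lgr6 with 3 and 1. Of 6 measured receptor and secretion genes, 3 had more Sertoli calls, a share near that of all genes, and 3 equal numbers. The co-receptor gene Lrp6 had 4 and 0, Fzd5 had 1 and 0, and Porcn, which encodes the enzyme that attaches lipid to WNT proteins, had 3 and 2.

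In the list of target genes, 5 of 6 measured genes had more pre-granulosa calls, beside 30.7% of all genes, with a median difference of -3 (Sertoli minus pre-granulosa calls), but 3 of the 6 were Lef1, Sp5 and Msx1 themselves. The others were Nkd1, a feedback inhibitor, with 9 pre-granulosa and 5 Sertoli calls, Cdx2 with 2 and 0, and the cyclin gene Ccnd1 with 3 and 4. The list of inhibitors held Nkd1 again and 3 other measured genes, each with a difference of 1 call: Draxin with 4 pre-granulosa and 3 Sertoli calls, Frzb with 2 and 1, and Dkk3 with 0 and 1. Nuclear factors were divided, with 3 of 7 towards each cell type. Lef1 led towards pre-granulosa cells, followed by Bcl9l with 13 pre-granulosa and 10 Sertoli calls. Pygo2 had 3 and 7, and Bcl9 had 0 and 3.

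Of the retinoid genes, 10 had listed contacts, of which 6 had more Sertoli calls and 2 more pre-granulosa calls, among them Cyp26b1. The shares over all genes were 56.5% and 30.7%, so that the Sertoli count is near the background. Stra6, which encodes a retinol transporter, had 51 Sertoli and 24 pre-granulosa calls, the retinoid receptor gene Rxra 16 and 6, and Aldh1a3, a gene for an enzyme that makes retinoic acid, 13 and 7. Crabp2, which encodes a retinoic acid binding protein, had 6 and 4. Among 14 genes of pre-granulosa cells, 5 had listed contacts, the members Rspo1, Lef1, Sp5 and Msx1 and the homeobox gene Lhx9, with 4 pre-granulosa and 2 Sertoli calls. Neighbouring genes can share a bin or a contact, so the genes of a list are not independent. Ccnd1 is named to complete a small count, after its values were seen.

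**Figure D5:**
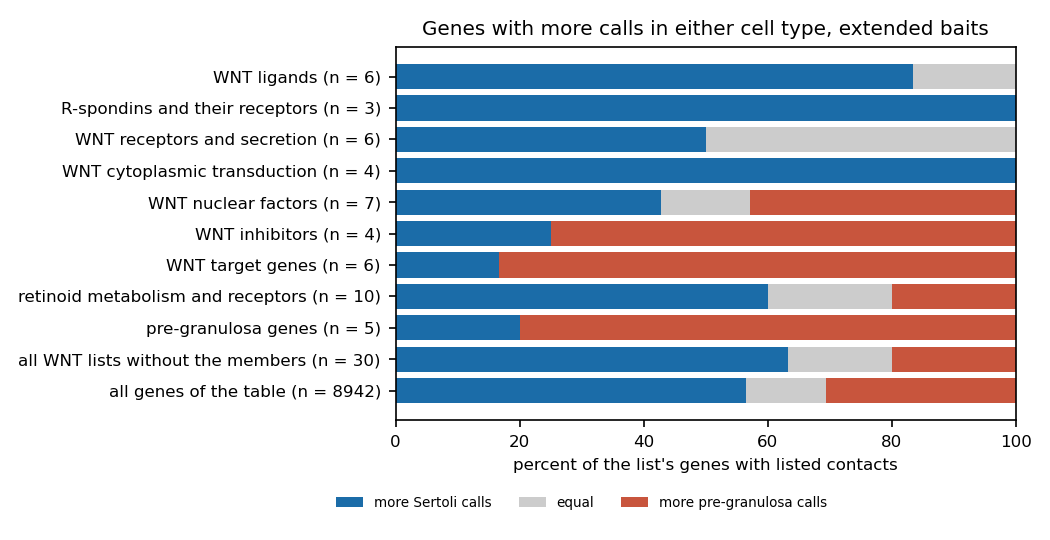
Percent of the genes with listed contacts in each list that had more Sertoli calls, equal numbers or more pre-granulosa calls, extended baits, with the number of such genes beside each name. The target genes and the pre-granulosa genes, which include members, have the longest pre-granulosa bars, while the 30 other WNT genes have a longer Sertoli bar, as the whole table has.

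The pattern of calls of each member was also found in other genes. With the numbers of Sertoli-only, pre-granulosa-only and shared contacts over the 2 cell types as the measure, 27 other genes had the same numbers as Rspo1, 18 as Lef1, 39 as Msx1, 206 as Sp5 and 530 as Cyp26b1. Closest by their highest scores were Golt1b and Mical2 to Rspo1, Cdc42ep5 and Olfr873 to Lef1, Kbtbd3 and Msantd4 to Sp5, Olfr675 and Oprd1 to Msx1, and 3830403N18Rik and Prlh to Cyp26b1. Golt1b, for example, reached 10.97 in Sertoli cells, beside 10.5 for Rspo1.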

How the data were processed

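The 2 deposited tables hold CHiCAGO scores for Sertoli cells (3 libraries) and pre-granulosa cells (2 libraries), 1 score column per cell type, so the authors' way of combining libraries and the depth are unknown here. The names of the deposited tables give the score, bins of 5 kb and a minimum of 5, and 0 rows in either lay below it in both cell types. The build is mm10, which is GRCm38, per the submitters' processing notes. All 1072 original-bait starts that fell in a GRCm38.p6 promoter window of RefSeq lay on GATC. Aligner, filters and versions are not given in the sources used here.

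Names were split at commas, the transcript number was dropped, and cis contacts with a member at either end were kept. Each row counted as 1 contact. The extended baits are the main table, since they name more genes. Gene bounds and promoter sequences are from RefSeq, and 8593 of 8772 bait symbols matched, all on the same chromosome. The counting was checked on simulated rows. The text names the members, every partner promoter, up to 4 genes per list with the largest difference of calls, and the 2 genes most like each member. The totals count 1 partner bin and 1 listed gene that are not reported here. The members and lists were chosen with earlier results of these data known. Alternatives were thresholds of 7 and 10, the original baits, equal numbers of calls, a minimum of 20 kb, pairs counted once, touching bins as shared and, added after seeing the data, members as baits only. Tools were Python 3.11.15, pandas 2.3.3, numpy 2.4.6 and matplotlib 3.10.9.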

Additional observations from a re-analysis of the deposited data

How the results depend on the processing

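Counts of calls and differences of calls per gene were recomputed under each alternative, except that counting touching bins as shared bears only on the contacts called in both cell types. Of 49 alternative values, 29 stayed within 1.5 times the main value and 20 moved further. Of the 27 that were differences, 0 changed sign. For Lef1, Sp5, Msx1 and Cyp26b1 most alternatives could not change it. Every extended-bait row of these 4 genes had the higher score in pre-granulosa cells. The score difference of 1 contact did reverse with the original bait, that of Lef1 at -347.4 kb, from 5.11 in Sertoli cells against 7.60 to 6.53 against 5.46. A threshold of 7 left 3 Sertoli and 7 pre-granulosa calls with 0 shared, and a threshold of 10 left 1, 3 and 0. The original baits gave 3 and 5 calls, all of Lef1. Shared contacts dropped to 1 with equal numbers of calls in the whole table, reached by a Sertoli threshold of 6.01, and to 1 with a minimum of 20 kb. The difference of calls (Sertoli minus pre-granulosa) of Rspo1 was 1 at a threshold of 10. For Lef1 it was -2 at a threshold of 10 and -2 with the original baits. For Sp5 it was -1 at thresholds of 7 and 10, -1 with each pair of bins counted once and -1 with the member as bait only. For Msx1 it was -2 at a threshold of 7, -2 with each pair once and -2 as bait only. The fewer counts at higher thresholds and with pairs counted once follow from their construction, and other causes were not tested. There was no value for Msx1 at 10, for Cyp26b1 at 7, at 10 or from 20 kb, or for the 4 genes with no listed contact in the table of original baits. No paired analysis was possible because the scores carry no replicate number, and leaving out a library could not be done for the same reason. Depth could not be weighed, as read counts are not in the score tables.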
